A study of Mus musculus with 16 samples.

Results

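The aryl hydrocarbon receptor (AHR) and its target genes were followed through 3 RNA-seq experiments on the deletion of Cul4b in the mouse small intestine. The set held 7 genes taken by name, Cyp1a1, Cyp1b1, Tiparp, Nqo1, Ahr, Arnt and Ahrr, of 54643 genes listed in the 3 count tables together. The set was chosen by an earlier reading of these data, in which the counts of Cyp1a1 were higher in knockout crypts, so the crypt values of Cyp1a1 are given here as a description without a p-value, while the other members, taken by name, and the organoid experiments were tested. Of the 7 members, 5 passed the filter on low counts in each experiment (Cyp1a1, Tiparp, Nqo1, Ahr and Arnt), and Cyp1b1 and Ahrr did not and are given as counts.

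The study asked what the loss of CUL4B, the scaffold of a ubiquitin ligase, does to the intestinal epithelium. Crypts, the epithelial pockets that hold the stem cells, came from 4 WT and 4 KO-IEC mice, in which pVillin-Cre deletes Cul4b in the intestinal epithelium (pVillin-Cre; Cul4b fn/Y). Organoids, epithelial cultures grown from crypts in Matrigel, came as 2 WT and 2 KO-IEC libraries and, in a separate experiment, as 2 WT and 2 KO-CAG libraries. KO-CAG cultures carry the ubiquitous, tamoxifen-inducible CAG-CreERT2 together with Cul4b fn/Y, and the methods give 10 µM 4-OHT as the inducer. The WT controls are Cul4b fn/Y without pVillin-Cre in the study's text; whether the WT cultures of the KO-CAG experiment carried CreERT2 or received 4-OHT is not given in the sources used here, so an effect of the inducer and of the deletion cannot be told apart there. All mice were C57BL/6, and the methods give 8 to 16 weeks as the age in most experiments. The study's methods call the libraries of a group biological replicates, and whether the organoid libraries came from separate mice or from separate cultures of one mouse is not given in the sources used here, so the organoid p-values may measure the spread between cultures only. The pVillin-Cre deletion leaves Cul4b intact in any cell outside the epithelium.

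AHR is a ligand-activated transcription factor of the bHLH-PAS family. Without ligand it is held in the cytosol by a complex that includes HSP90 and p23, and with ligand it enters the nucleus, pairs with ARNT and binds the xenobiotic response element. In the gut its ligands come from diet and from bacterial and host metabolism of tryptophan. Its best known targets are the P450 enzymes CYP1A1 and CYP1B1, which clear its ligands, TIPARP, a mono-ADP-ribosyltransferase that limits AHR signaling, and AHRR, a repressor that competes with it. NQO1, a quinone reductase, is a target of both AHR and NRF2. AHR has also been described as the substrate receptor of a ligase built on CUL4B, DDB1, RBX1 and TBL3.

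The core of the xenobiotic response element, GCGTG or CACGC on the opposite strand, was searched in the 250 bases before the start of each gene in RefSeq sequence of GRCm38.p6. A promoter was listed for 6 of the 7 members, all but Ahr. The core was found once before Cyp1a1, Tiparp, Cyp1b1 and Arnt, 3 times before Ahrr and not before Nqo1. For comparison, 28.2% of 32851 promoters of this length held it and 2.77% held it at least 3 times, so a single match is common, and no match says only that these letters are not in this window. Binding of AHR to any of these matches was not measured, and sequence farther upstream was not searched. The sequences of Cyp1a1 and Tiparp, the members with the largest fold changes in the crypts, and of Ahrr, with the most copies, are shown. Capitals mark the letters of the core and not a known binding site. The Cyp1a1 sequence is chr9:57697363-57697612 on the plus strand, inside the gene as the tables list it, in the first intron of a longer annotated transcript. That of Ahrr is chr13:74292332-74292581 on the minus strand. That of Tiparp is chr3:65528197-65528409 on the plus strand and ends at the start that the tables list, within an exon of the antisense transcript 4931440P22Rik.
Cyp1a1: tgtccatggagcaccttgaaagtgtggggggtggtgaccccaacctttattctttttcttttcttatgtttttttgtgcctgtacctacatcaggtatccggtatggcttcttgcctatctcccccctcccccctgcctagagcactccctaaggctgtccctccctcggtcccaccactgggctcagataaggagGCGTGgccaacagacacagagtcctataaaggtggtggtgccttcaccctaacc
Ahrr: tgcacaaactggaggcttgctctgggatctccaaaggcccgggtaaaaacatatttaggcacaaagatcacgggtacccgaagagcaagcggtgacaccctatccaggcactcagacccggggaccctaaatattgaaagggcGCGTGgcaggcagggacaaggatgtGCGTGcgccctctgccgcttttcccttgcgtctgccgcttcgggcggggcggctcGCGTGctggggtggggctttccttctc
Tiparp: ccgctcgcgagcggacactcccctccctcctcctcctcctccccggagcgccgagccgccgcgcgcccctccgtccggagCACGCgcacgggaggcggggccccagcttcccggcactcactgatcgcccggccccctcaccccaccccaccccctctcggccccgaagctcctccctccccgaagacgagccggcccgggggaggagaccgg
In the tables Cyp1a1 lies at chr9:57687928-57703824, Tiparp at chr3:65528410-65555518, Nqo1 at chr8:107388225-107403206, Ahr at chr12:35497974-35535038, Arnt at chr3:95434388-95497240, Ahrr at chr13:74211118-74292331 and Cyp1b1 at chr17:79706953-79715041. These positions are those of GENCODE M21 on GRCm38, except that the Cyp1b1 gene is longer there.

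Total counts ran from 7348191 to 16881395 per library, and 3 counts, taken as the floor, corresponded to 0.173 to 0.417 CPM (counts of a gene per 1000000 counts of its library, after TMM scaling), which covers counting error only. Cul4b checked the labels. It fell from 33.9 ± 3.01 CPM in WT to 1.43 ± 0.632 in KO-IEC crypts (SD, n = 4 each), and its log2 fold change was -5.50 in KO-IEC and -4.02 in KO-CAG organoids, with every KO library below every WT library in all 3 experiments. The 6 epithelial markers summed to between 5936 and 11317 CPM in each library, and T cell markers to 21.5 to 332 CPM in the crypts and at most 2.69 CPM in the organoids. The crypt libraries stood apart in mitochondrial ribosomal RNA (mt-Rnr1 and mt-Rnr2): it was 18.6 to 27.6 CPM in WT replicate 1 and KO-IEC replicates 1, 2 and 3, 833 to 1107 CPM in replicate 4 of both genotypes, and 2737 to 2740 CPM in WT replicates 2 and 3. Fewer cells of a type and less RNA per cell cannot be told apart in these bulk libraries.

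Cyp1a1 was the member that differed most between genotypes in the crypts. It stood at 2.06, 0.660, 0.160 and 6.51 CPM in WT replicates 1 to 4 and at 57.6, 16.3, 21.6 and 17.5 CPM in KO-IEC replicates 1 to 4. Every KO-IEC library was above every WT library, and KO-IEC replicate 1 was far above the other KO-IEC libraries. The log2 fold change was 3.56 (SE 0.80), from a mean of 2.35 ± 2.89 CPM to 28.2 ± 19.7 CPM (SD, n = 4 each), and ranked 4 of 13427 tested genes. Among the libraries low in mitochondrial ribosomal RNA, 1 WT and 3 KO-IEC libraries, the difference in log2 CPM was 3.62, and between the replicates 4, 1 library of each genotype in the middle class, it was 1.40. The high class held WT libraries only.

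**Figure D1:**
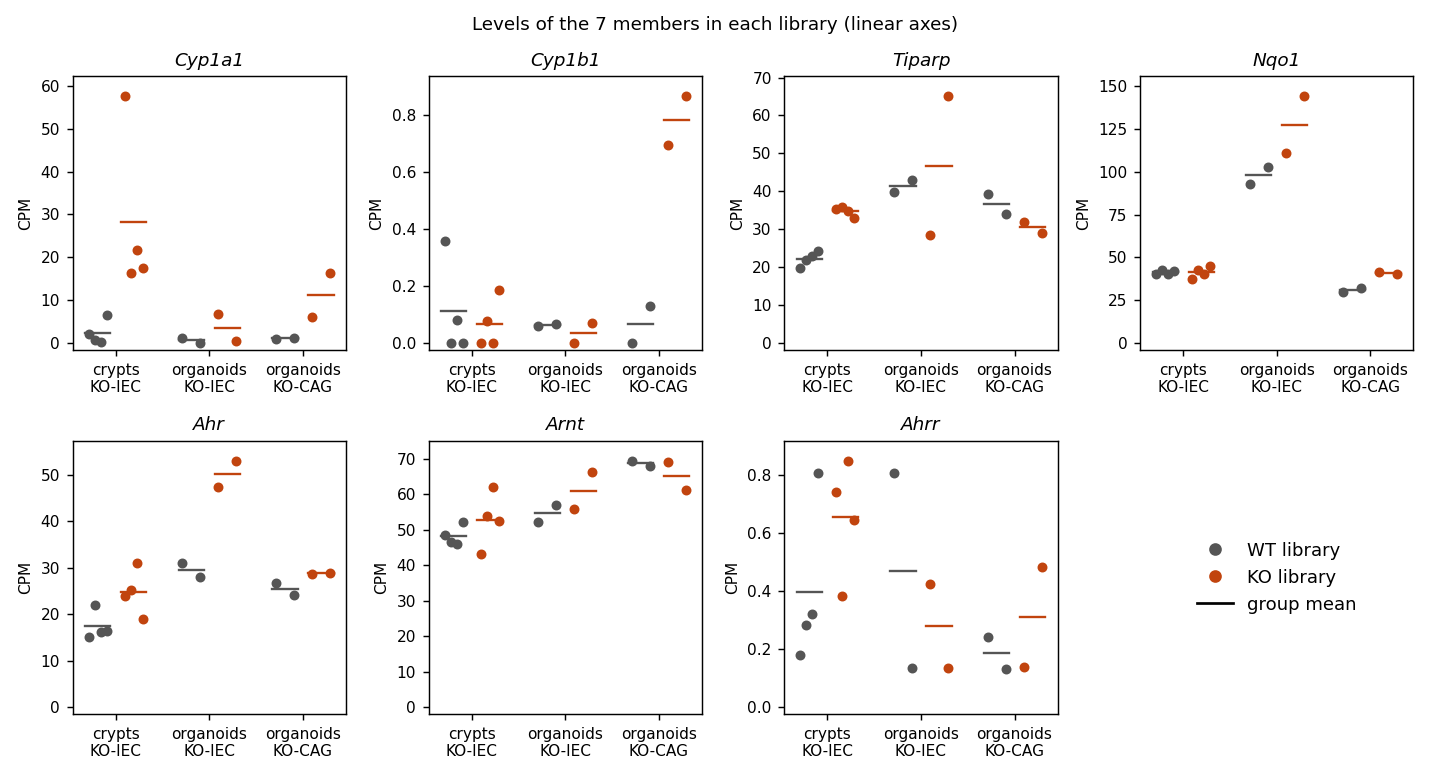
CPM (vertical, linear axes) of the 7 members in each of the 16 libraries; points are libraries, lines are group means, grey WT and orange KO, with 4 libraries per group in crypts and 2 in organoids. Cyp1a1 was higher in every KO library than in every WT library in the crypts and in KO-CAG organoids, while Cyp1b1 and Ahrr stayed under 1 CPM throughout.

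Markers of absorptive enterocytes moved with genotype too. The 11 enterocyte markers, none at 0 in any library, summed to 5954, 3280, 2348 and 9035 CPM in WT crypt replicates 1 to 4 and to 8105, 13119, 18848 and 17419 CPM in KO-IEC replicates 1 to 4. The WT and KO-IEC ranges overlapped through KO-IEC replicate 1, which had the most Cyp1a1 and the fewest enterocyte markers of its group. Per 1000 CPM of enterocyte markers, Cyp1a1 was 0.346, 0.201, 0.0681 and 0.721 CPM in WT against 7.11, 1.24, 1.15 and 1.00 CPM in KO-IEC replicates 1 to 4. Every KO-IEC library was above every WT library on that scale as well. With the marker level as a covariate, which itself moved with genotype, the Cyp1a1 log2 fold change was 3.15 (SE 0.94). The part of the enterocyte markers in the Cyp1a1 difference was not tested. The 8 T cell markers were at 21.5 to 109 CPM in WT against 47.4 to 332 CPM in KO-IEC crypts, with the lowest KO-IEC value in replicate 1. Markers of ILC3, a lymphoid cell type, were at 43.4 to 61.1 CPM in WT against 63.7 to 107 CPM in KO-IEC crypts. In each library 2 or 3 of these 5 were at 0 counts. Myeloid markers were at 14.5 to 17.7 against 8.64 to 11.1 CPM, and stroma markers at 13.3 to 17.5 against 7.29 to 10.2 CPM. Stem cell markers overlapped, at 1493 to 2339 against 940 to 1506 CPM, as did B cell, endothelial and red blood cell markers. The part of these markers in the result was not tested.

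**Figure D2:**
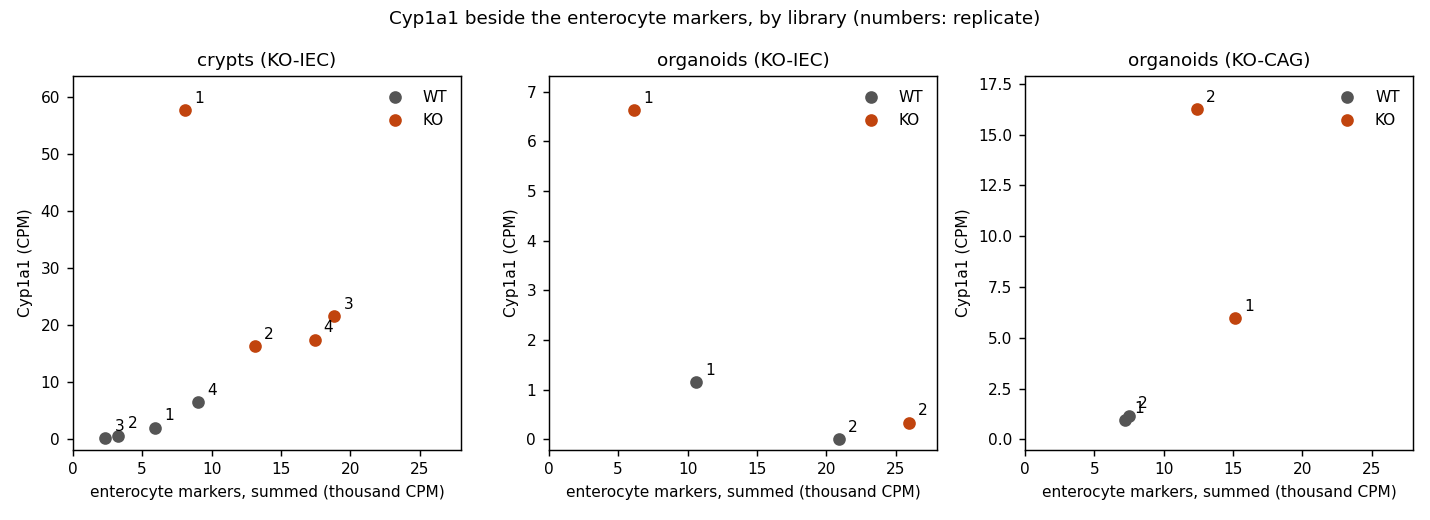
Cyp1a1 (CPM, vertical) against the summed CPM of 11 enterocyte markers (in units of 1000 CPM, horizontal) in the libraries of each experiment; grey WT, orange KO, numbers are replicates. In the crypts KO-IEC replicate 1 had 57.6 CPM of Cyp1a1 beside 8105 CPM of markers, whereas in KO-IEC organoids the library with the fewest markers had the most Cyp1a1.

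Tiparp rose in the crypts of KO-IEC mice. It was at 19.8, 21.9, 22.9 and 24.1 CPM in WT against 35.2, 35.9, 34.8 and 33.0 CPM in KO-IEC replicates 1 to 4. The groups did not overlap and each spanned a narrow range. Its log2 fold change was 0.65 (SE 0.10, adjusted p = 0.0251 by the edgeR quasi-likelihood test over all tested genes), a 1.56-fold difference, and the difference in log2 CPM was 0.83 among the libraries low in mitochondrial ribosomal RNA and 0.45 in the middle class. Reads on the antisense transcript 4931440P22Rik, which overlaps the start of Tiparp, were few, with 10 to 29 counts in WT and 14 to 17 in KO-IEC crypts beside 221 to 300 and 328 to 470 counts for Tiparp. Strand use in the counting is not stated, so reads of the pair cannot be told apart.

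Of the 4 tested members other than Cyp1a1, Tiparp alone was called at an adjusted p under 0.05 in the crypts, where 6.96% of all tested genes were called, 4.3% higher and 2.66% lower. It was also the only one of the 4 whose KO-IEC libraries were all above WT, as in 8.7% of all tested genes, while none was below WT throughout, as 8.79% were. Cyp1a1, whose values chose the set and which passed the filter on low counts through its KO-IEC libraries alone, is left out of these counts. The Tiparp call was lost with the replicate number as a block (adjusted p = 0.0891), with the class of mitochondrial ribosomal RNA (0.190) or the enterocyte marker level (0.624) as a covariate, or with the 2 WT libraries of the high class left out (0.391), all in edgeR. Over all genes these 4 fits called 4, 2, 1 and 1 genes, against 934 in the fit without them. The Tiparp estimate stayed between 0.56 and 0.71 under every alternative run. Leaving out WT replicate 1, 2 or 3 or KO-IEC replicate 2 or 3 also ended the Tiparp call (adjusted p = 0.0741, 0.109, 0.0927, 0.107 and 0.0641, edgeR), and it was kept without WT replicate 4 or KO-IEC replicate 1 or 4.

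Ahr itself, the receptor, was at 15.1, 21.96, 16.2 and 16.5 CPM in WT against 24.0, 25.1, 31.0 and 19.0 CPM in KO-IEC crypts, replicates 1 to 4. The groups overlapped, WT replicate 2 being above KO-IEC replicate 4. The log2 fold change of 0.51 (SE 0.17) did not pass the test (adjusted p = 0.0869, edgeR), while DESeq2 called it (adjusted p = 0.0437). Its partner Arnt was at 46.1 to 52.2 CPM in WT against 43.1 to 62.0 in KO-IEC, with a log2 fold change of 0.13 (SE 0.11, adjusted p = 0.450, edgeR). Nqo1 was the most even member, at 40.3, 42.6, 40.2 and 42.1 CPM in WT against 37.2, 42.4, 40.4 and 44.9 CPM in KO-IEC crypts. Its log2 fold change was 0.00 (SE 0.09, adjusted p = 0.988, edgeR). The repressor Ahrr had 2, 3, 4 and 10 counts in WT and 7, 5, 8 and 7 in KO-IEC. Pooled over libraries the KO-IEC to WT ratio was 1.55 with an exact 95% interval of 0.830 to 2.95. That interval covers counting error only and not the spread between mice. Cyp1b1 had 4, 0, 1 and 0 counts in WT and 0, 1, 0 and 2 in KO-IEC crypts, near or under the floor, and a difference was not detectable at this depth.

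In organoids of the same KO-IEC genotype no member was called, and Cul4b was the only gene called of 13938 tested (0.00717%), with none called higher (0%), although 650 genes had an unadjusted p under 0.05 in edgeR. Of the members, Ahr had an unadjusted p under 0.05, and DESeq2 called none. Cyp1a1 had 20 and 0 counts in WT and 110 and 5 in KO-IEC replicates 1 and 2, or 1.15 and 0.00 against 6.63 and 0.338 CPM. The high KO-IEC library and the high WT library were both replicate 1, and the groups overlapped. The log2 fold change was 2.55 (SE 1.72, adjusted p = 0.856, edgeR) and turned to -0.80 without KO-IEC replicate 1, and it was 8.76 without WT replicate 1, when the WT library left had 0 counts. The replicates with more Cyp1a1 had fewer enterocyte markers, 10614 against 20926 CPM in WT and 6156 against 25975 CPM in KO-IEC, the reverse of the order among the WT crypts. The part of the markers in this was not tested.

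Ahr was at 31.2 and 28.1 CPM in WT against 47.4 and 53.1 CPM in KO-IEC organoids, the groups being apart, with a log2 fold change of 0.76 (SE 0.18, adjusted p = 0.856, edgeR). Nqo1 was at 92.8 and 103 CPM in WT against 111 and 144 CPM in KO-IEC, also apart, at 0.38 (SE 0.19, adjusted p = 0.856, edgeR). KO above WT without overlap in 2 of 5 members compares with 19.4% of all tested genes. Tiparp was split between the KO-IEC libraries, at 28.3 and 65.1 CPM on either side of 39.9 and 42.9 CPM in WT. Without KO-IEC replicate 1 its log2 fold change was 0.65, and without KO-IEC replicate 2 it was -0.55, against 0.17 with both. Leaving out KO-IEC replicate 1 also brought Ahr (0.84, adjusted p = 0.0163), Nqo1 (0.56, 0.0371) and Tiparp (0.0259) past the threshold in edgeR, with the lone KO-IEC library assumed to vary like the WT pair, and 2322 of 14650 genes were called in that fit. Arnt was at 52.2 and 57.1 CPM in WT against 55.8 and 66.2 in KO-IEC. Ahrr had 14 and 2 counts in WT and 7 and 2 in KO-IEC, and Cyp1b1 had at most 1 count in any library.

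**Figure D3:**
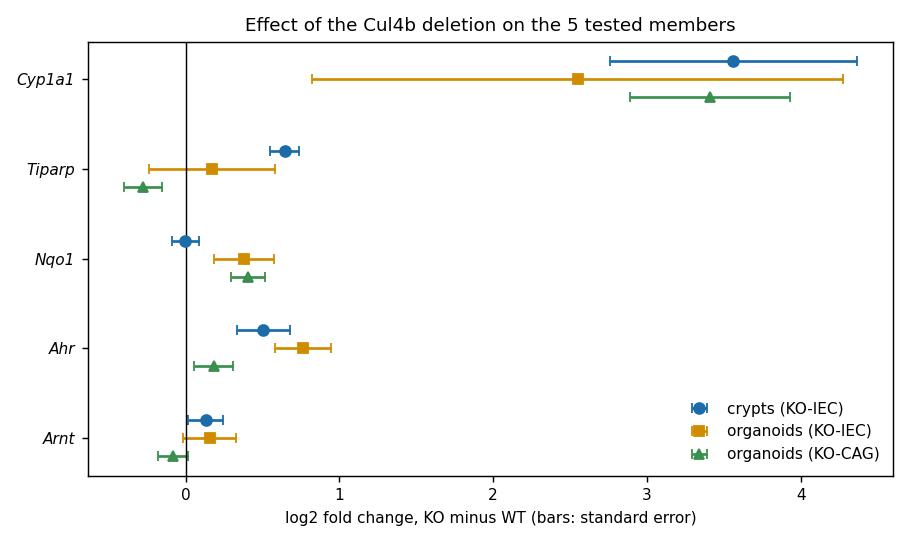
Log2 fold change, KO minus WT (horizontal), of the 5 tested members in the 3 experiments; bars are standard errors, with 4 libraries per group in crypts and 2 in organoids. Cyp1a1 lay at 3.56, 2.55 and 3.41, and Tiparp ranged from 0.65 in crypts to -0.27 in KO-CAG organoids.

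In KO-CAG organoids, where an effect of the inducer and of the deletion cannot be told apart, Cyp1a1 was higher than in WT. It had 8 and 9 counts in WT and 43 and 169 in KO-CAG, or 0.964 and 1.17 against 5.98 and 16.3 CPM. Both KO-CAG libraries were above both WT libraries, and they differed between themselves by more than the WT libraries did. The log2 fold change was 3.41 (SE 0.52, adjusted p = 0.000935, edgeR), a 10.6-fold difference, from 1.06 ± 0.143 to 11.1 ± 7.26 CPM (SD, n = 2 each). No WT library reached the filter's minimum of 1.26 CPM (before TMM scaling) and both KO-CAG libraries did, so Cyp1a1 entered the test through the group in which it was high. The p-value therefore gives no support of its own. The estimate lay between 2.47 and 3.90 with any library left out, and its call was lost when all 16 libraries shared 1 fit (3.38, adjusted p = 0.219, edgeR). The enterocyte markers were at 7210 and 7518 CPM in WT against 15132 and 12406 CPM in KO-CAG, and Cyp1a1 per 1000 CPM of them was 0.134 and 0.155 in WT and 0.395 and 1.31 in KO-CAG. The part of the markers was not tested. T cell markers were near 0 in these cultures, with 5 to 7 of 8 markers at 0 counts.

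Nqo1 rose in KO-CAG organoids, from 29.6 and 31.9 CPM to 41.3 and 40.3 CPM, with a log2 fold change of 0.41 (SE 0.11, adjusted p = 0.0180, edgeR). The call was lost with DESeq2 (adjusted p = 0.105), in the fit of all 16 libraries (0.134) and without WT replicate 1 or 2 (0.169 and 0.0610, edgeR), at estimates of 0.34 to 0.45. Cyp1a1 and Nqo1 made 2 of 5 tested members called higher, where 31.5% of all tested genes were called, 18.1% higher. The count gives no support of its own, since Cyp1a1 was tested only because of its KO-CAG level. Tiparp was lower in both KO-CAG libraries, 32.0 and 28.9 CPM against 39.4 and 33.9 in WT, and its log2 fold change of -0.27 (SE 0.12) did not pass the test (adjusted p = 0.119, edgeR). The antisense transcript 4931440P22Rik had 33 and 20 counts in WT and 10 and 11 in KO-CAG. Ahr was at 26.7 and 24.1 CPM in WT against 28.8 and 28.9 in KO-CAG, with a log2 fold change of 0.18 (SE 0.12, adjusted p = 0.293, edgeR), and Arnt was at 69.5 and 67.9 against 69.1 and 61.2 CPM. Besides Cyp1a1, Nqo1 and Ahr had both KO libraries above WT, as 35.5% of all tested genes did, and Tiparp had both below, as 34.2% did.

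Cyp1b1, the other P450 enzyme of the set, had 0 and 1 counts in WT and 5 and 9 in KO-CAG organoids and did not pass the filter. Pooled, the ratio was 12.7 with an exact 95% interval of 1.94 to 539, which covers counting error only. Ahrr had 2 and 1 counts in WT and 1 and 5 in KO-CAG. Cyp1a2, named after its values were seen because it belongs to the same P450 family, had 22 counts in KO-IEC crypt replicate 3 and at most 3 counts in each of the other 15 libraries.

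The difference of the knockout effect between experiments was tested in 1 fit of all 16 libraries over 15585 genes. No member passed, where 0.372% of genes did for KO-CAG organoids against crypts, 0.00642% for KO-IEC organoids against crypts and 0.385% for KO-IEC against KO-CAG organoids. For Tiparp, higher in every KO-IEC crypt library and lower in both KO-CAG libraries, KO-CAG minus crypts was -0.93 (SE 0.34, adjusted p = 0.226, edgeR). Nqo1 differed by 0.40 (SE 0.17, adjusted p = 0.312, edgeR) in that comparison and by 0.40 (SE 0.17, adjusted p = 0.675) between KO-IEC organoids and crypts. The Cyp1a1 effect differed by -0.18 (SE 1.88) between KO-CAG organoids and crypts and by -1.03 (SE 1.80) between KO-IEC organoids and crypts, so a difference of several log2 units in either direction was within its error.

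Per kilobase of gene length, the order of the WT levels was led by Nqo1 in all 3 experiments, at 26.6, 63.1 and 19.8 CPM per kilobase in WT crypts and in WT of the KO-IEC and KO-CAG organoids. Arnt and Tiparp followed at 5.09 to 9.50 and Ahr at 2.83 to 4.80 CPM per kilobase, and Cyp1a1, Ahrr and Cyp1b1 were below 1 on average. The ranges of Arnt and Tiparp overlapped in WT of the KO-CAG experiment and were apart in the other 2. Cyp1a1 and Ahrr overlapped in the crypts and in WT of the KO-IEC organoids, and Ahrr and Cyp1b1 overlapped in the crypts and in WT of the KO-CAG experiment. Each experiment was scaled by itself, and no level is set against one from another experiment.

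By Pearson correlation of log2 CPM with Cyp1a1 over the 8 crypt libraries, among 12303 genes tested in all 3 experiments, the nearest genes were Cpm (carboxypeptidase M, 0.97), Phospho1 (0.96), Tecpr2 (0.95), Plekhf1 (0.95) and Camk4 (0.95). These libraries share the genotype difference and the class of mitochondrial ribosomal RNA. Tiparp ranked 307 (0.85), Ahr 2584 (0.58), Arnt 4057 (0.34) and Nqo1 6592 (-0.15). Over all 16 libraries, centred on the WT mean of each experiment, the nearest were Phactr2 (0.87), Ermp1 (0.87), Lrrc8d (0.87), Tecpr2 (0.85) and Ctr9 (0.84), and Tiparp fell to 0.24 while Ahr was at 0.49. Only Tecpr2 was among the first 5 in both.

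Of the chaperones that hold AHR in the cytosol, Hsp90aa1 was ordered by the class of mitochondrial ribosomal RNA in the crypts. Hsp90aa1, the inducible HSP90, was at 12.8, 802, 889 and 401 CPM in WT against 16.3, 11.1, 11.03 and 343 CPM in KO-IEC replicates 1 to 4. The 4 libraries of the low class were at 11.03 to 16.3 CPM whichever their genotype, the 2 of the middle class at 343 and 401 and the 2 WT libraries of the high class at 802 and 889. Its log2 fold change was -2.46 (SE 1.37, adjusted p = 0.243, edgeR). Hsp90ab1, the constitutive HSP90, showed no such order, at 1756 to 2694 CPM in WT against 1352 to 2677 CPM in KO-IEC. Ptges3, which encodes p23, was at 112 to 175 CPM in WT against 85.8 to 172 CPM in KO-IEC. Of the 4 genes of the complex tested in the crypts 0 were called by edgeR, where 6.96% of all tested genes were. An unadjusted p under 0.05 was found for 1, and for 4287 of 13427 tested genes. DESeq2 called 1, and its number over all genes is given at the end. In KO-CAG organoids Src, the kinase of the complex, rose from 133 to 181 CPM (0.45, adjusted p = 0.00778, edgeR), and no gene of the complex was called higher without WT replicate 2 or in the fit of all 16 libraries.

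**Figure D4:**
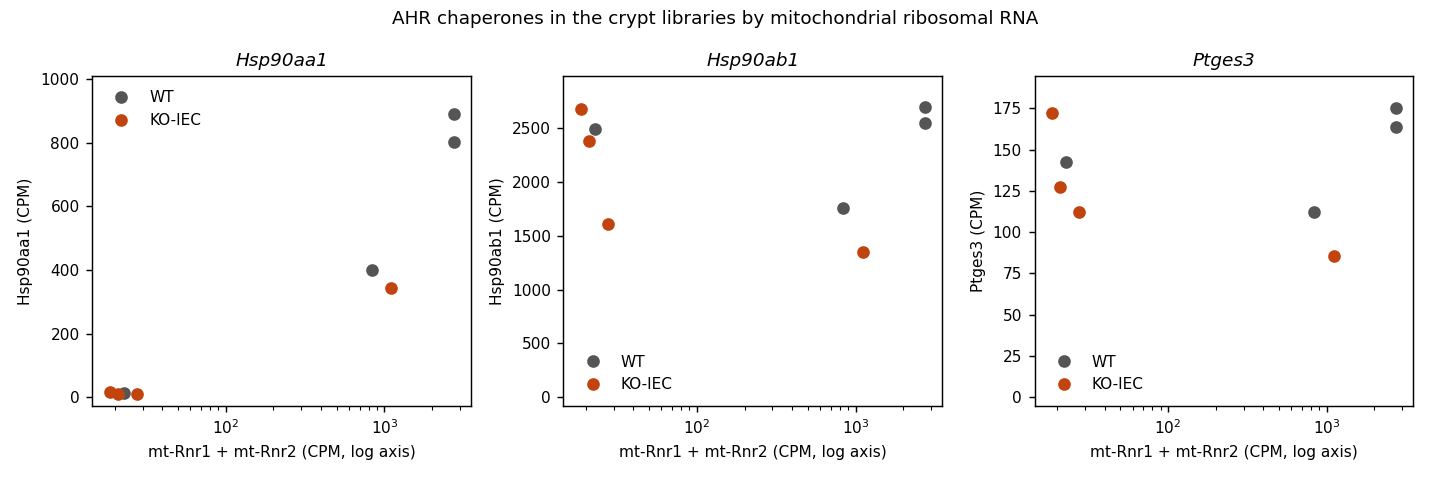
CPM of 3 genes of the cytosolic AHR complex (vertical, linear) against the summed CPM of mt-Rnr1 and mt-Rnr2 (horizontal, log axis) in the 8 crypt libraries, grey WT and orange KO-IEC. Hsp90aa1 lay at 11.03 to 16.3 CPM in the 4 libraries with the least mitochondrial ribosomal RNA and at 802 and 889 CPM in the 2 with the most.

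Markers of several epithelial cell types were higher in KO-CAG than in WT organoids, beside the pathway lists that follow. The enterocyte marker values are given above. The 7 goblet cell markers summed to 4842 and 4626 CPM in WT against 8068 and 7407 in KO-CAG, the 6 Paneth cell markers to 5360 and 4927 against 8779 and 8214, and the 6 epithelial markers to 6176 and 5936 against 9173 and 8090, with no marker of these lists at 0 in any of the 4 libraries. The 5 stem cell markers went the other way, at 2819 to 3327 CPM in WT against 2314 to 2713 CPM in KO-CAG. The 3 tuft cell markers overlapped, at 36.0 to 42.0 CPM in WT against 35.8 to 45.0 CPM in KO-CAG. The part of these markers in the list results was not tested.

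NRF2-regulated genes, which answer oxidative stress and include targets shared with AHR signaling, were mostly called higher in KO-CAG organoids. Of 16 tested 11 were called higher, 0 lower and 5 were not called, with 1 estimate below 0 (-0.24), against 18.1% of all tested genes called higher and 13.4% lower. Their median log2 fold change was 0.38, against 0.00 over all tested genes. Slc7a11, the cystine transporter, was at 6.99 and 9.46 CPM in WT against 28.9 and 21.1 CPM in KO-CAG (1.59, SE 0.21). Srxn1, sulfiredoxin, was at 50.7 and 58.7 CPM in WT against 136 and 113 CPM in KO-CAG (1.18, SE 0.11). Hmox1 rose by 1.37 and Ephx1 by 0.71 on the log2 scale. Prdx1, the most abundant of the list, was at 611 CPM in WT against 735 CPM in KO-CAG (0.27, SE 0.09, adjusted p = 0.0396, edgeR). The count was 10 or 11 under 6 of the 7 alternatives that kept all libraries and 0 in the fit of all 16 libraries, and 7 to 11 with 1 library left out. In the crypts 1 of 14 tested was called, Gclm, a subunit of the enzyme that starts glutathione synthesis, from 61.2 to 94.0 CPM (0.62, SE 0.15, adjusted p = 0.0483, edgeR), with a list median of 0.16 against -0.01 over all tested genes, of which 4.3% were called higher. No gene of the list was called with the replicate block, either covariate, the high class left out, scaling by library size only, or without WT replicate 1, 2 or 3 or KO-IEC replicate 2 or 3.

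Other genes known to respond to AHR were also mostly higher in KO-CAG organoids, with 5 of 8 tested called higher and 1 lower, against 18.1% and 13.4% of all tested genes. The 5 include Ereg, whose level in KO-CAG let it into the test. With at least 10 counts in every library, a filter that leaves Ereg out, 4 of 7 were called higher and 1 lower. This list shares genes with the NRF2 and tryptophan lists, so the counts of the lists are not independent. In the fit of all 16 libraries 0 of 10 were called higher and 1 lower, and with 1 library left out 3 to 5 of 8 were higher. Their median log2 fold change was 0.53. Ereg, a ligand of the EGF receptor, was at 0.964 and 1.43 CPM in WT against 13.3 and 9.23 CPM in KO-CAG (3.22, SE 0.34), and it passed the filter through the KO-CAG libraries alone. Gsta1, a glutathione S-transferase, was at 143 and 159 CPM in WT against 570 and 545 CPM in KO-CAG (1.89, SE 0.09), and Gsta2, a close copy whose reads may be shared with it, rose by 1.11. Cyp2s1, an epithelial P450 enzyme induced through AHR, went the other way, at 191 and 186 CPM in WT against 55.9 and 72.5 CPM in KO-CAG. Its log2 fold change was -1.55 (SE 0.11, adjusted p = 1.54e-05, edgeR). In KO-IEC organoids Cyp2s1 was at 301 and 209 CPM in WT against 238 and 588 CPM in KO-IEC, and the difference between the 2 organoid experiments, 2.28 (SE 0.45), passed the test of the difference itself (adjusted p = 0.0465, edgeR). In the crypts 0 of 9 tested were called by edgeR, where 6.96% of all tested genes were. An unadjusted p under 0.05 was found for 5, and for 4287 of 13427 tested genes. DESeq2 called 4, and its number over all genes is given at the end. The median log2 fold change was 1.20, against -0.01 over all tested genes. Ereg entered the crypt test through its KO-IEC libraries alone, so these counts and the median give no support of their own. Cyp2s1 was at 94.6 and 101 CPM in WT and KO-IEC crypts.

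Relatives of AHR in the bHLH-PAS family can share ARNT as a partner. In KO-CAG organoids 3 of 7 tested were called higher and 1 lower, against 18.1% and 13.4% of all tested genes, and 1 was called higher and 0 lower in the fit of all 16 libraries. Arnt2, the paralog of Arnt, rose from 8.67 and 9.20 CPM in WT to 33.8 and 26.9 CPM (1.75, SE 0.17), the hypoxia factors Hif1a and Epas1 rose by 0.77 and 0.64, and Hif3a fell by 1.22 on the log2 scale. In the crypts Epas1, Npas2 and Clock were called higher, 3 of 7 tested, against 4.3% of all tested genes. Epas1 was at 4.57, 5.75, 5.52 and 10.5 CPM in WT against 43.3, 11.2, 115 and 13.7 CPM in KO-IEC crypts, its adjusted p of 0.0499 lying at the threshold (edgeR). Npas2 and Clock, both of the circadian clock, were at 0.89 and 0.44 (adjusted p = 0.0486 and 0.0488, edgeR). Arnt2 was not called there, at 1.61, 1.04, 1.92 and 2.33 CPM in WT against 0.423, 0.840, 0.530 and 1.38 CPM in KO-IEC. It passed the crypt filter through its WT libraries alone. Its effect differed by 2.85 (SE 0.81, adjusted p = 0.139, edgeR) between KO-CAG organoids and crypts. The crypt count was 0 with the replicate block, either covariate, the high class left out, scaling by library size only, and without WT replicate 1, 2 or 3 or KO-IEC replicate 2 or 3, and 1 without KO-IEC replicate 4.

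Enzymes of tryptophan catabolism, the source of host AHR ligands, were called higher for 4 of 8 tested in KO-CAG organoids, against 18.1% of all tested genes, and for 0 of 9 in the fit of all 16 libraries. These were Tph1, of serotonin synthesis, from 21.0 and 22.8 CPM in WT to 62.0 and 45.4 CPM (1.28, SE 0.16), Maoa (0.86), Maob (0.64) and Ddc (0.55), while the kynurenine pathway genes tested, Kyat1, Kyat3, Kmo and Afmid, were not called. The 4 enteroendocrine markers rose beside them, from 585 and 604 CPM in WT to between 1238 and 1337 CPM in KO-CAG, and their part was not tested. In the crypts 1 of 8 tested was called, Kyat3, a kynurenine aminotransferase, from 8.29 to 4.58 CPM (-0.85, SE 0.20, adjusted p = 0.0460, edgeR), against 2.66% of all tested genes called lower. The other estimates, 7 of 8, were above 0, and the list median was 0.48 against -0.01 over all tested genes. An unadjusted p under 0.05 was found for 5 of 8, and for 4287 of 13427 tested genes. DESeq2 called 4 higher and 1 lower, and edgeR called 3 higher without WT replicate 4 or without KO-IEC replicate 1. No gene of the list was called lower with the replicate block, either covariate, the high class left out or all 16 libraries in 1 fit, or without WT replicate 1, 2 or 3 or KO-IEC replicate 2, 3 or 4. Of the coactivators, Ncoa1 (-0.45) and Crebbp (-0.36) were called lower in KO-CAG organoids, 2 of 8 tested against 13.4% of all tested genes, with 0 called in the fit of all 16 libraries and 1 to 3 with 1 library left out. By comparison 0 of 8 were called in the crypts by edgeR, where 6.96% of all tested genes were. There 4 had an unadjusted p under 0.05, as 4287 of 13427 tested genes did, and DESeq2 called 3. The DESeq2 number over all genes is given at the end. Of the ligase with which AHR has been linked, Cul4b alone was called, and Ddb1, Rbx1, Tbl3 and the paralog Cul4a ranged from -0.22 to 0.13 on the log2 scale in the 3 experiments. In KO-IEC organoids 0 of 53 tested entries of the 6 lists other than the ligase were called by edgeR or DESeq2, and 4 had an unadjusted p under 0.05. Over all tested genes there, edgeR called 0.00717%, and 650 of 13938 had an unadjusted p under 0.05.

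**Figure D5:**
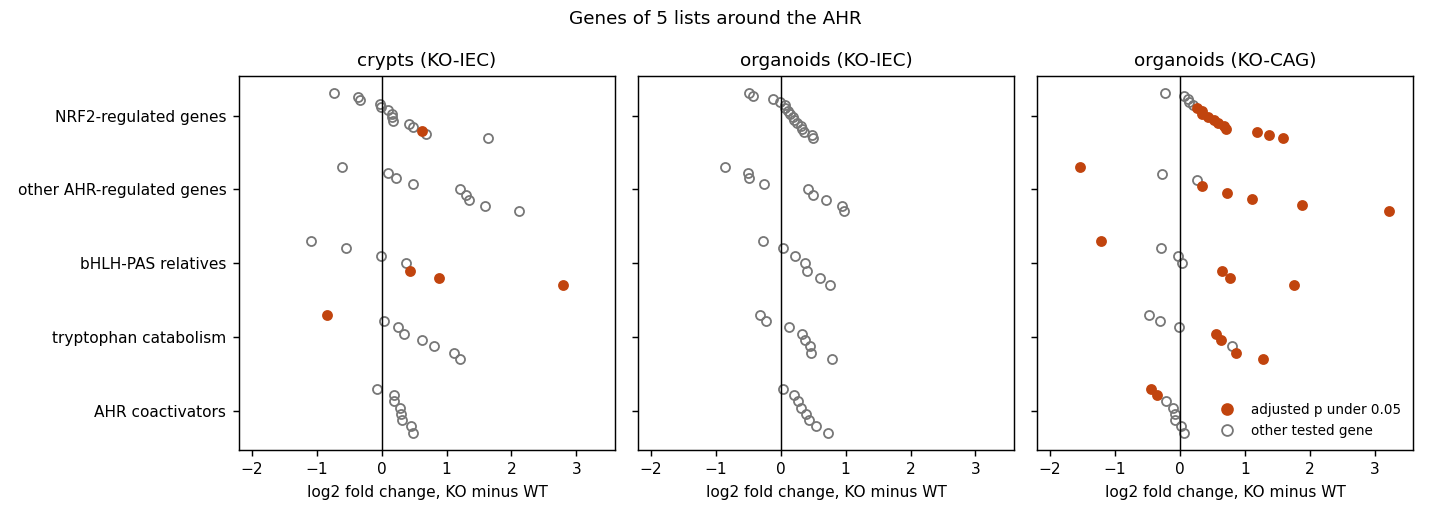
Log2 fold change, KO minus WT (horizontal), of the tested genes of 5 lists in the 3 experiments, filled where the adjusted p was under 0.05. In KO-CAG organoids 11 of 16 NRF2-regulated genes were called, all higher, where 31.5% of all tested genes were called and 18.1% higher. The crypts had 1 of 14 called, where 6.96% of all tested genes were. KO-IEC organoids had 0 of 16 called, where 0.00717% of all tested genes were.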

How the data were processed

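RNA-seq was analysed for 16 libraries made and sequenced by Novogene. Per experiment the authors deposited 1 table with unnormalized read counts for each gene and its length. The submitters' processing notes name HISAT2 2.0.5 and featureCounts 1.5.0-p3, and the build, annotation and strand use are not given in the sources used here. KO was compared with WT in a separate fit for each experiment (edgeR 4.0.16 under R 4.3.3: filterByExpr, TMM scaling, quasi-likelihood test), and p-values were adjusted by Benjamini-Hochberg over all tested genes. DESeq2 1.42.0, the tool of the study, was an alternative. Called means an adjusted p under 0.05. Standard errors are the absolute log2 fold change over the square root of F, and log2 CPM carries a prior count of 2. Intervals of pooled count ratios are exact conditional binomial. The fit was tested on simulated counts.

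The members, lists and tests were chosen with earlier results of these data known. The genes named were the 7 members, Cul4b, the 5 genes most like Cyp1a1, and from each list up to 4 called genes with the largest change per experiment and the 2 most abundant, together with genes named for a count of 5 or fewer. Classes of mitochondrial ribosomal RNA have bounds at 100 and 2000 CPM. The enterocyte covariate and the fit without the high class were added after the data were seen. One gene of the lists is not reported here.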

Additional observations from a re-analysis of the deposited data

Results flagged for a closer look

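Cyp1a1 in KO-IEC crypt replicate 1, at 57.6 CPM, stood apart from the other 3 libraries of its group, with a gap of 0.870 of the group's range and so past Dixon's 95% critical value for 4 samples. It was 1 of 16 sets of 4 libraries checked (7 members and Cul4b in 2 groups), and chance gives about 1 such set in 20. Without this library the Cyp1a1 log2 fold change in the crypts was 2.95.

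For Tiparp every KO-IEC crypt library was above WT and both KO-CAG organoid libraries were below WT. The difference of the effects, KO-CAG minus crypts, was -0.93, and it did not pass the test (adjusted p = 0.226, edgeR).

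Cyp2s1 differed in its knockout effect between the organoid experiments, KO-IEC minus KO-CAG, by 2.28 (adjusted p = 0.0465, edgeR). KO-IEC replicate 2 was at 588 CPM, while the other KO-IEC library, at 238 CPM, lay between the WT libraries.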

How the results depend on the processing

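Members past the threshold in the crypts are counted without Cyp1a1, because its values there chose the set. The 1 member so counted, Tiparp, was kept with at least 10 counts in every library, a filter that takes Cyp1a1 out of the test in all 3 experiments. DESeq2 called Ahr too. The count was 0 with the class of mitochondrial ribosomal RNA or the enterocyte marker level as a covariate or with the high class left out, the last 2 chosen after seeing the data. The 0 members called in KO-IEC organoids became 1 with no low-count filter (Cyp1a1, 2.55, adjusted p = 0.00308, edgeR). The 2 called in KO-CAG organoids became 1 with at least 10 counts (Nqo1) and 1 with DESeq2 (Cyp1a1). With all 16 libraries in one fit the count was 0, and Cyp1a1 was at 3.38. With no low-count filter Cyp1b1 was called too (3.38, adjusted p = 0.0394, edgeR), on 0 and 1 counts in WT against 5 and 9 in KO-CAG. The number called over all genes in that fit is not given here, so the Cyp1b1 call gives no support of its own. Leaving out 1 library, the number called in crypts, again without Cyp1a1, ran from 0 to 1. The Cyp1a1 log2 fold change then ran from 2.95 to 4.90 in crypts, -0.80 to 8.76 in KO-IEC and 2.47 to 3.90 in KO-CAG organoids. Estimates near 0 turned sign: Nqo1 in crypts was at 0.010 with DESeq2 size factors, 0.0046 with at least 10 counts, 0.031 with the class covariate, 0.011 with DESeq2, 0.0031 with all 16 libraries and -0.036 to 0.044 with 1 library left out. Arnt was at -0.14 in crypts with the enterocyte covariate and ran from -0.19 to 0.0045 in KO-CAG organoids, and Tiparp from -0.55 to 0.65 in KO-IEC organoids, when 1 library was dropped. Over all genes, the 934 called in crypts became 1479 with no filter, 2490 with DESeq2, 1659 in the fit of all 16 libraries and 2 to 2468 with 1 library left out. The 1 called in KO-IEC organoids became 223, 27 and 18 in those 3 fits and 0 to 2322 with 1 library left out, and the 4278 in KO-CAG organoids became 2761 with DESeq2, 477 in the fit of all 16 libraries and 2789 to 5177 with 1 library left out. In that joint fit the lists outside the ligase kept 2 calls in KO-CAG organoids, 1 bHLH-PAS relative and 1 other AHR-regulated gene. With the replicate number as a block, Tiparp (0.65) was not among the 4 genes called in the crypts, where the Cyp1a1 estimate was 3.94, and no organoid member call changed. Same-numbered WT and KO libraries deviated together with correlations of -0.04, 0.19, -0.40 and 0.43 in the crypts, 0.342 in KO-IEC and 0.0669 in KO-CAG organoids. Not every crypt pair was above 0.1, so the numbers were not taken to pair the crypt libraries. Replicate 4 of both genotypes did fall in the same class of mitochondrial ribosomal RNA, and a shared origin was not tested further. With 2 libraries per group both organoid replicates give the same value, which cannot decide the pairing. The main organoid fits left the libraries unpaired. Other than the loss of Cyp1a1 to the filter, the cause of these changes was not tested. Depth limits Cyp1b1 and Ahrr, which had 14 counts or fewer in every library.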
